A study of Mus musculus with 72 samples.

Results

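H13 is one of the imprinted regions read by IMPLICON, in which bisulfite-converted DNA is amplified region by region and the reads are split between the parental genomes by strain variants. All 19 CpGs that carry the name H13 were taken, of 224 CpGs in the deposited table. They lie on chromosome 2 of build GRCm38, from 152686786 to 152686970, in a single amplicon inside the H13 gene (152669422 to 152708668). The gene Mcts2 starts at 152687148 on the plus strand, 362 bases downstream of the first CpG.

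The samples are lung, the control organ, and 5 areas of the brain (nucleus accumbens, hypothalamus, prefrontal cortex, cerebellum, hippocampus) of 8 female F1 mice, 1 library per mouse and tissue. Old mice 1 and 2 had a BL6 mother and a CAST father and were 101 weeks old, and old mice 3 and 4 had the reciprocal cross and were 103 weeks old. Young mice 5 and 6 had a CAST mother and were 8 weeks old, and young mice 7 and 8 had a BL6 mother and were 9 weeks old. No mouse carried a treatment or an engineered allele in the labels, and the tissue labels could not be checked against markers, since the table holds methylation only. The assay reads bulk tissue, so a change in the share of a kind of cell and a change within cells cannot be told apart.

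H13 encodes signal peptide peptidase, a protease of the endoplasmic reticulum membrane. Mcts2 is a retrogene copied from the X-linked gene Mcts1 into an intron of H13. In mouse its CpG-rich promoter is methylated in oocytes, so that Mcts2 is silent on the maternal chromosome and transcribed from the paternal one. On the unmethylated paternal allele H13 transcripts end early, at polyadenylation sites upstream of Mcts2, while on the methylated maternal allele they run on to the full-length end.

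The Mcts2 promoter window of RefSeq (GRCm38.p6, chr2:152686898-152687197, plus strand, 250 bases before to 50 after the start) is printed because it holds the downstream end of the amplicon. Capitals mark the 7 assayed CpGs inside it.
Mcts2 promoter: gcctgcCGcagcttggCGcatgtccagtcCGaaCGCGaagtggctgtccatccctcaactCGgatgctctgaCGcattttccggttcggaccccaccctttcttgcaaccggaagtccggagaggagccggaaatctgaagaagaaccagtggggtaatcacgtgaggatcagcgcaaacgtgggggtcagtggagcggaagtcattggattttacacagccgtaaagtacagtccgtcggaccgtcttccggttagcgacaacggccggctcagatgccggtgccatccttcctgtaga
The window has 25 CG pairs, and 18.4% of 32851 promoter windows of the same length have as many, against a median of 7. The motif TGCCGC, which the zinc finger protein ZFP57 binds in its methylated form, was searched on both strands. It was found once, at 152686901 to 152686906, around the assayed CpG 13, and 11.6% of the windows hold it. The other 12 assayed CpGs lie upstream of the window, and their sequence was not used here.

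CpG values under 50 calls per allele and library were left out. Of the 19 CpGs, 17 passed on both alleles in each of 47 libraries, and their mean is called the level of an allele here. The hippocampus library of old mouse 3 had at most 7 calls at an H13 CpG and gave no value. Per-CpG calls in the other 47 libraries had medians of 57.5 (prefrontal cortex of young mouse 5) to 7697 (cerebellum of old mouse 3). CpGs are numbered 1 to 19 along the plus strand, CpG 18 being the end CpG.

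In all 6 tissues H13 was highly methylated on the maternal chromosome and little methylated on the paternal one. Over mice the maternal level was 86.1% ± 6.48 and the paternal level 8.32% ± 3.15 (SD, n = 8). In each of the 47 libraries the maternal level exceeded the paternal one. The difference was widest in hippocampus, at 84.01 points ± 9.62 (n = 7, exact sign-flip p = 0.0156, the smallest that 7 mice allow), and cerebellum, at 83.9 ± 11.7 (n = 8). It was 78.04 ± 11.8 in hypothalamus, 77.4 ± 15.8 in nucleus accumbens, 73.9 ± 24.4 in prefrontal cortex and 69.2 ± 11.8 in lung. Exact two-sided sign-flip tests gave p = 0.00781 in the tissues with 8 mice, the smallest possible, and adjusted p of at most 0.0156 over the 6 tissues. Neighbours in this order differed by less than the SD between mice.

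A value is called here when its adjusted p is below 0.05. Each of the 17 CpGs was called different between the parental alleles, by 70.6 points (CpG 1) to 79.9 points (CpGs 6 and 12, limma adjusted p of at most 4.2e-07). Of all CpGs of the table in this fit, 68.2% were called. The profile along the amplicon was nearly flat, with the smallest allele difference at its upstream end. On the maternal allele the lowest was CpG 1, with a mean of 81.4% over the 47 libraries, and the highest CpG 8, with 87.7%. On the paternal allele CpG 1 was the highest, with 10.96%, and CpG 11 the lowest, with 7.39%. The first 3 CpGs, which span 27 bases, had 82.3% on the maternal allele against 86.8% for the other 14, and were lower in 45 of 47 libraries. On the paternal allele they had 10.1% against 8.01%, and were higher in 46 of 47 libraries. CpG 13, inside the motif match, stood at 87.3% (maternal) and 8.26% (paternal), within the range of the 17 CpGs. Within a library the 17 CpGs spread little, with a median SD over CpGs of 2.43 points (maternal) and 1.26 points (paternal). These CpGs are read on the same molecules and are not independent.

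**Figure D1:**
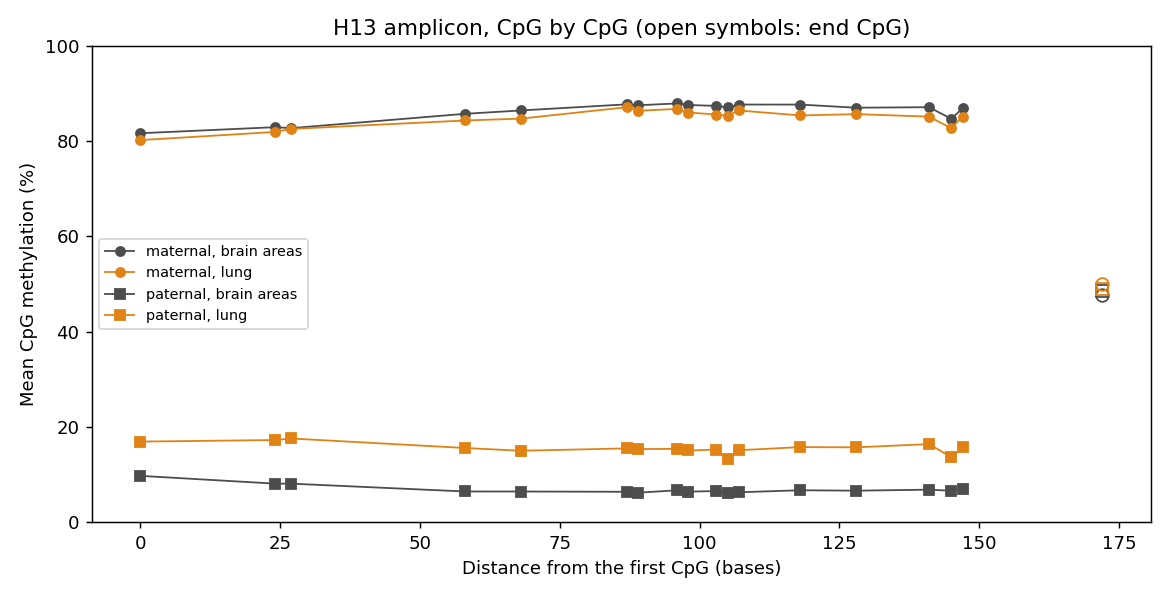
Mean CpG methylation (percent) against distance from the first CpG (bases), for each parental allele, in the brain areas and in lung. The maternal lines of brain and lung run within 2.28 points of each other, the paternal line of lung lies 7.05 to 9.56 points above that of the brain areas at each of the 17 CpGs, and the end CpG (open symbols) lies near 48% on both alleles.

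The end CpG at 152686958 (CpG 18) did not share the allele difference. It had 48.1% on the maternal allele (45 libraries) and 48.6% on the paternal allele (46 libraries), which is -0.529 points apart (maternal minus paternal, 95% interval -1.74 to 0.678, limma adjusted p = 0.432). Over all 91 library-alleles its level was 48.3% ± 2.80, from 39.7 to 56.5%. By tissue it ran from 46.8% in hippocampus to 49.4% in lung, and by age 48.7% (old) and 48.02% (young). On the BL6 genome it had 47.4% as the maternal and 48.7% as the paternal allele, and on the CAST genome 48.8% and 48.6%. The pooled share was 48.4%, and 86 of 91 exact (Clopper-Pearson) 95% binomial intervals held it. Its calls were 62.6 to 74.4% of those of the last of the 17 CpGs, with a median of 68.2%. CpG 19, the last, had at most 42 calls in any library and allele, and none reached the minimum. Pooled over libraries it had 49.8% methylated of 219 maternal calls (exact 95% interval 42.96 to 56.6) and 53.7% of 229 paternal calls (47.02 to 60.3). Both CpGs at the end of the amplicon thus lay near 50% on either allele, and they enter no level given here.

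The reciprocal crosses separate the strain of an allele from its parent. The level on genome 1, taken as BL6, was 3.56 points below that on genome 2 (difference -3.56, 95% interval -11.7 to 4.57, limma adjusted p = 0.561). Of the 17 CpGs 0 were called, and 0 had an unadjusted p below 0.05, with differences of -3.95 to -3.03 points; 0% of all CpGs in that fit were called. With 1 mouse left out the strain difference ran from -5.65 points (without mouse 5) to -0.387 points (without mouse 8). By cross, 0% of region-alleles were called in each tissue, H13 included. In cerebellum the maternal level was 84.5% with a BL6 mother and 94.2% with a CAST mother (difference -9.68 points, limma adjusted p = 0.220), and the paternal level 7.92% and 3.09% (4.83 points, adjusted p = 0.220). Without mouse 1 the paternal difference was 6.45 points and called (limma adjusted p = 0.0139), and the maternal one -13.04 points and called. In lung the cross differences were -8.23 points (maternal) and 6.35 points (paternal), each with a limma adjusted p of 0.639. Hippocampus, hypothalamus and nucleus accumbens had the same signs as cerebellum. Prefrontal cortex had the opposite ones, at 4.26 points (maternal) and -2.37 points (paternal).

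Libraries spread more than the CpGs within a library. The alleles were least separated in young mouse 5's prefrontal cortex, with 46.1% (maternal) and 29.4% (paternal), or 16.7 points, at a median of 57.5 calls. Next came the nucleus accumbens of young mouse 8, with 56.3% and 16.5% (39.8 points), and the lung of the same mouse, with 67.5% and 22.3% (45.2 points, 79.5 calls). These were the 3 libraries with the fewest calls at H13. Over all regions the prefrontal cortex library of mouse 5 held 137024 calls, above the median of 62773, while lung and nucleus accumbens of mouse 8 held 9785 and 10928. In the library of mouse 5 the SD over the 17 CpGs was 1.29 points (maternal) and 0.703 points (paternal), so all CpGs carried the shifted level together. The highest separation, 96.4 points (97.4% and 0.975%), was in the deepest library, the cerebellum of old mouse 3 with 7697 calls. Mouse 8 had the lowest mean separation of the 8 mice at H13, with 56.8 points over its 6 tissues. At Gnas, an imprinted region on the same chromosome, it had 57.3 points, next to 57.7 points in mouse 5. At Commd1 its only library with a value had 85.8 points, and at Plagl1 it had no value. Prefrontal cortex of old mouse 2 had 72.4 points at 1302.5 calls, where the mean of that tissue was 73.9 points. Lung of young mouse 7 had 73.6 points at 1312.5 calls, where the mean of lung was 69.2 points. The part of depth in the levels was tested only through the alternatives with other call minimums and with the calls as covariate.

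**Figure D2:**
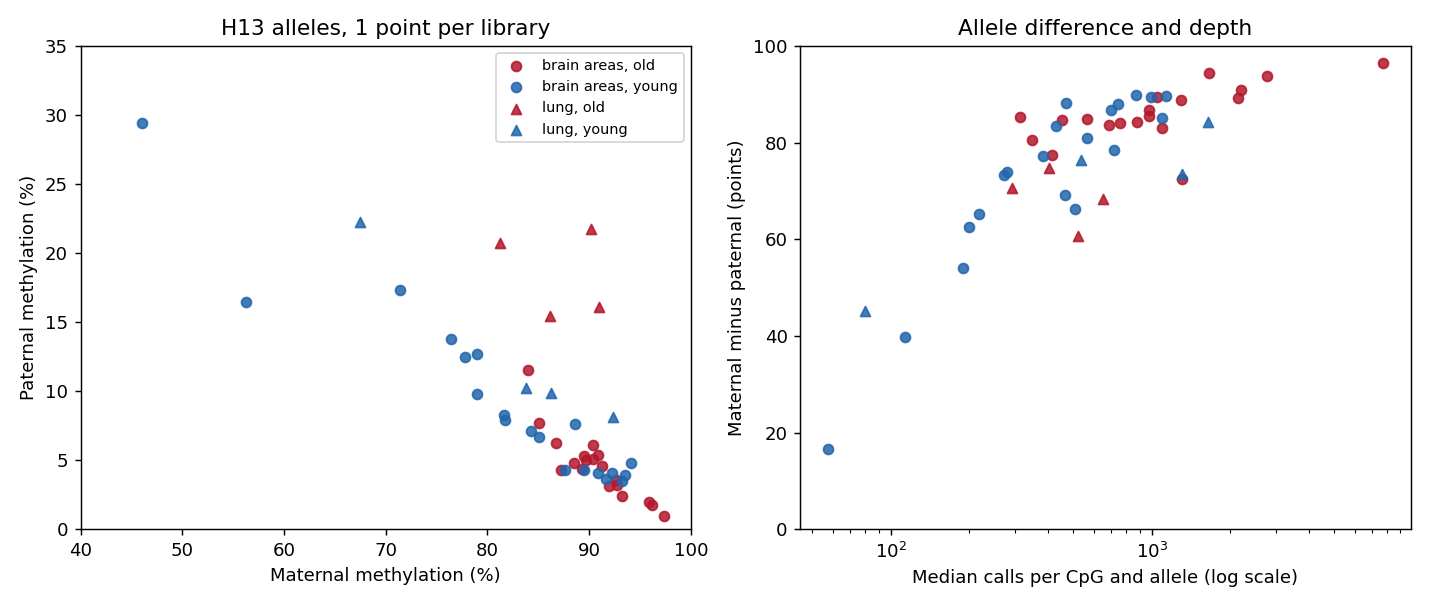
Left, paternal against maternal methylation (percent), 1 point per library. Right, maternal minus paternal level (points) against the median calls per CpG and allele (log scale). The 3 libraries with the fewest H13 calls have the 3 lowest separations (16.7 to 45.2 points), and old lung libraries lie above the brain libraries on the paternal axis at like maternal levels.

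The mean paternal level was higher in lung than in each of the 5 brain areas, and the difference was called in 4 of them. In lung of old mice 1 to 4 it had 20.7, 21.8, 15.5 and 16.1%, and in lung of young mice 5 to 8 it had 8.16, 9.85, 10.3 and 22.3%. In hippocampus it had 3.21, 3.56 and 5.10% in old mice 1, 2 and 4, and 3.92, 4.08, 4.30 and 13.8% in young mice 5 to 8. Apart from mouse 8, all hippocampus libraries lay below all lung libraries. In nucleus accumbens it had 5.04, 6.12, 4.35 and 6.22% in old mice 1 to 4, and 4.05, 8.24, 4.27 and 16.5% in young mice 5 to 8. In cerebellum old mice had 1.75, 7.70, 0.975 and 3.13%, and young mice 3.50, 4.76, 9.77 and 12.5%. In hypothalamus old mice had 5.32, 4.27, 4.81 and 4.59%, and young mice 12.7, 3.63, 6.68 and 17.3%. The highest brain values of hippocampus, cerebellum, hypothalamus and nucleus accumbens were those of mouse 8, whose lung value was also the highest of all lung libraries.

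Paternal H13 was lower than in lung (15.6% ± 5.68, n = 8) in 4 of the 5 brain areas by limma. It was 5.42% ± 3.74 in hippocampus (n = 7, -10.3 points, 95% interval -15.2 to -5.47, limma adjusted p = 0.00884), lower in 7 of 7 mice. It was 5.51% ± 4.08 in cerebellum (n = 8, -10.1 points, -14.4 to -5.75, limma adjusted p = 0.00371), lower in 8 of 8 mice. In nucleus accumbens it was 6.85% ± 4.13 (-8.73 points, -13.5 to -3.96, limma adjusted p = 0.00563), lower in 8 of 8 mice. In hypothalamus it was 7.42% ± 4.93 (-8.16 points, -13.5 to -2.81, limma adjusted p = 0.0205), lower in 7 of 8 mice, and the call was lost without mouse 1, 2, 3 or 4. In prefrontal cortex it was 9.17% ± 8.75 (-6.41 points, -14.5 to 1.73, limma adjusted p = 0.290), lower in 7 of 8 mice, and -10.4 points and called without mouse 5. The share of region-alleles called was 5.88% in hippocampus, 16.7% in cerebellum, 27.8% in hypothalamus and nucleus accumbens, and 0% in prefrontal cortex. With the log10 of the H13 calls as a covariate the differences stayed called in these 4 areas, at -6.90 to -9.88 points. These limma fits did not pair the libraries of a mouse. The paired exact sign-flip p was 0.0156 in hippocampus, 0.00781 in cerebellum and nucleus accumbens, 0.0234 in hypothalamus and 0.195 in prefrontal cortex.

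The paternal difference ran along the whole amplicon. Of the 17 paternal CpGs 17 were called lower in hippocampus and in cerebellum, 16 in nucleus accumbens and 15 in hypothalamus. Of all CpG-alleles 8.88, 9.42, 21.1 and 15.2% were called in these areas. In prefrontal cortex 0 of the 17 were called and 0% of all. The largest differences were at CpG 3 in hippocampus (-11.4 points) and cerebellum (-11.04 points) and at CpG 15 in hypothalamus (-8.99 points) and nucleus accumbens (-9.80 points). The end CpG differed from lung by -1.003 to 0.582 points on the paternal allele of these 4 areas and was not called. In cerebellum 15 to 17 CpGs stayed called whichever mouse was left out. The counts of the other called areas rested on single mice. Leaving out mouse 1 brought the hippocampus count to 0. The hypothalamus count fell to 0 when mouse 1, 2, 3, 4 or 6 was dropped. For nucleus accumbens 2, 0 and 10 CpGs were called when mouse 1, 2 and 3 were dropped in turn. In prefrontal cortex 17 were called without mouse 5. The shares of all CpG-alleles are given for the main fits only, not for fits with a mouse left out.

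On the maternal allele no tissue difference was called. Its level was 89.4% ± 5.92 in hippocampus, 89.4% ± 7.72 in cerebellum, 85.5% ± 6.97 in hypothalamus, 84.2% ± 11.7 in nucleus accumbens, 83.1% ± 15.7 in prefrontal cortex and 84.8% ± 7.92 in lung. Against lung the differences were -1.71 to 5.46 points (limma adjusted p of 0.310 to 0.998). Of the 17 maternal CpGs 0 were called in each area. With the mouse as a block 7 were called in hippocampus, and the share of all CpG-alleles called in that fit is not given.

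The paternal excess of lung was set beside that of 3 other imprinted regions. Within mice, paternal H13 was 8.76 points ± 6.52 higher in lung than in the mean of the brain areas, in 7 of 8 mice. At the other retrogene within a host gene, Commd1 with Zrsr1, the same difference was 0.179 points, at Gnas 2.00 points and at Plagl1 -1.34 points. H13 exceeded them by 8.59, 6.76 and 10.1 points (exact two-sided sign-flip p of 0.0312, 0.0312 and 0.0156, n = 7, 8 and 7). Adjusted over the 6 comparisons of both alleles each was 0.0625, so the excess over these regions was not past the threshold. The maternal differences against the same regions were -0.642, -0.938 and 1.00 points (adjusted exact p of 0.680 to 0.797). These comparisons were chosen after the values had been seen.

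**Figure D3:**
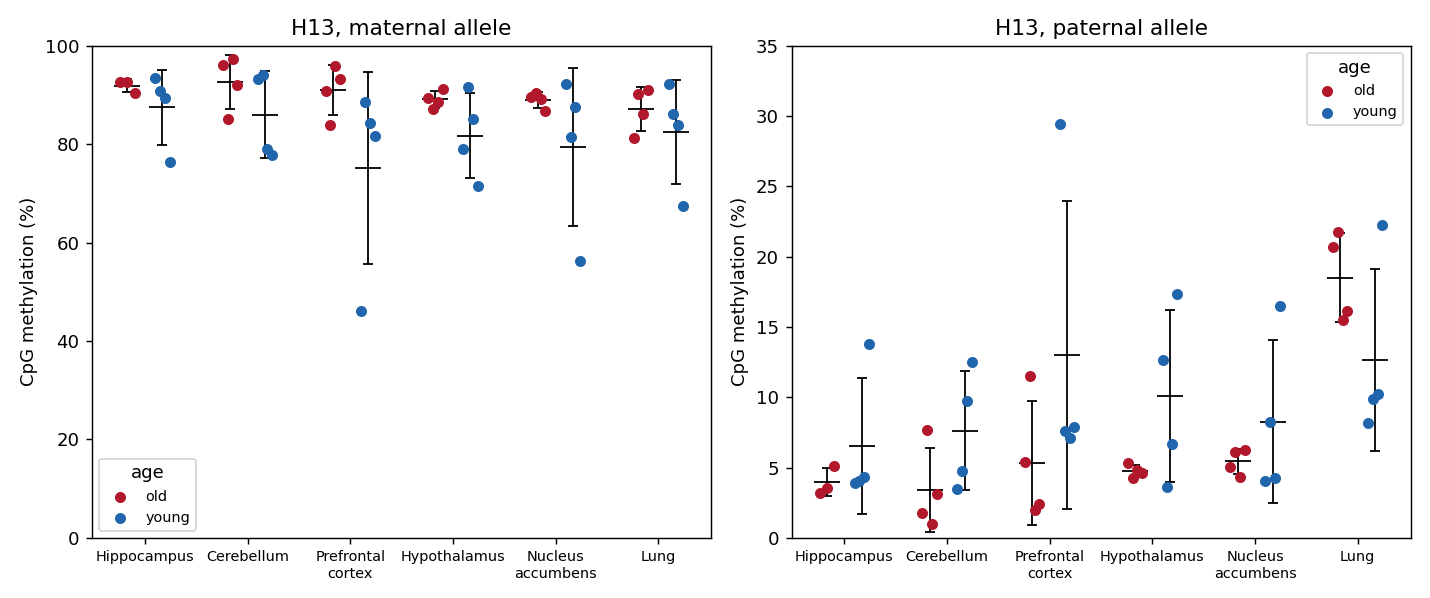
H13 methylation (percent, mean of 17 CpGs) on the maternal (left) and paternal (right) allele by tissue, 1 point per mouse, old and young mice apart, with the mean and SD in black. The paternal axis ends at 35%. The old lung libraries (15.5 to 21.8%) lie above all old brain libraries, and the prefrontal cortex of young mouse 5 stands apart at 46.1% and 29.4%.

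Age was the study's main comparison, and no H13 allele was called changed with age in any tissue by limma or by edgeR. Of 16 or 17 region-alleles per tissue 0% were called by limma; edgeR called 1 of 16 in lung, which was not H13. On the maternal allele old mice had 91.9 against 87.6% in hippocampus, 92.7 against 86.04% in cerebellum, 91.0 against 75.2% in prefrontal cortex, 89.1 against 81.8% in hypothalamus, 89.04 against 79.4% in nucleus accumbens and 87.1 against 82.5% in lung. The fitted differences were 4.66 to 15.8 points (limma adjusted p of 0.381 to 0.881). The widest, in prefrontal cortex, was 5.02 points without mouse 5. With the calls as covariate the maternal sign turned in prefrontal cortex (-17.7 points) and nucleus accumbens (-2.11 points).

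On the paternal allele the age differences of the brain areas and of lung had opposite signs. In the brain old mice had the lower mean: 3.95 against 6.52% in hippocampus, 3.39 against 7.63% in cerebellum, 4.75 against 10.1% in hypothalamus and 5.43 against 8.26% in nucleus accumbens. In prefrontal cortex old mice had a mean of 5.33%, and young mice 5 to 8 had 29.4, 7.60, 7.09 and 7.89%. The fitted differences were largest in prefrontal cortex (-7.67 points) and hypothalamus (-5.34 points), then cerebellum (-4.24 points), hippocampus (-2.96 points) and nucleus accumbens (-2.83 points), with adjusted p of 0.403 to 0.881 by limma. Without mouse 5 that of prefrontal cortex was -1.58 points. With the log10 of the H13 calls as a covariate the sign turned in prefrontal cortex (11.2 points) and nucleus accumbens (1.24 points). With it the difference was -0.589 points in hypothalamus, -1.81 in cerebellum, -1.93 in hippocampus and 5.21 in lung, and none was called. Without mouse 8, and without the covariate, the differences in hippocampus and nucleus accumbens were 0.0885 and 0.00326 points. In lung old mice had 18.5% and young mice 12.6%, or 5.87 points more (95% interval from -0.168 to 11.9; limma gave an adjusted p of 0.398 and exact permutation p = 0.200). The 4 old lung values lay above 3 of the 4 young ones, and young mouse 8 lay above them all, at a median of 79.5 calls. Without mouse 8 old mice were 8.46 points higher (limma adjusted p = 0.00562) and 17 of the 17 CpGs were called. The share of all CpG-alleles called without mouse 8 is not given. Without mouse 7 old mice were 3.65 points higher. Mean calls at H13 also differed with age, in opposite directions in brain and lung. Old and young libraries had mean calls of 1169 and 783 in hippocampus, 2766 and 638 in cerebellum, and 1812 and 321 in prefrontal cortex. They had 879 and 540 in hypothalamus, 561 and 321 in nucleus accumbens, and 467 and 893 in lung. These are means over libraries of the median calls per CpG, and their difference with age was not tested. The ranges overlapped in lung, at 292.5 to 651 calls (old) and 79.5 to 1642 calls (young). Calls were not balanced between the ages, so the fits without the covariate do not separate age from calls.

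At single CpGs, 0 of the 17 were called on either allele in any tissue, as were 0% of all CpG-alleles tested per tissue by limma. At an unadjusted p below 0.05, 12 of the 17 paternal CpGs were higher in old lung and 6 were lower in old cerebellum. Of the 17 maternal CpGs, 2 were higher in old cerebellum at that threshold. The share of all CpG-alleles under this unadjusted threshold is not given, so whether these counts stand out cannot be told. The lung differences ran from 2.81 points at CpG 16 to 7.17 points at CpG 17, its neighbour. All 17 paternal CpGs had a negative age difference in each brain area and a positive one in lung, and since the CpGs share molecules, this repeats the sign of the region.

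**Figure D4:**
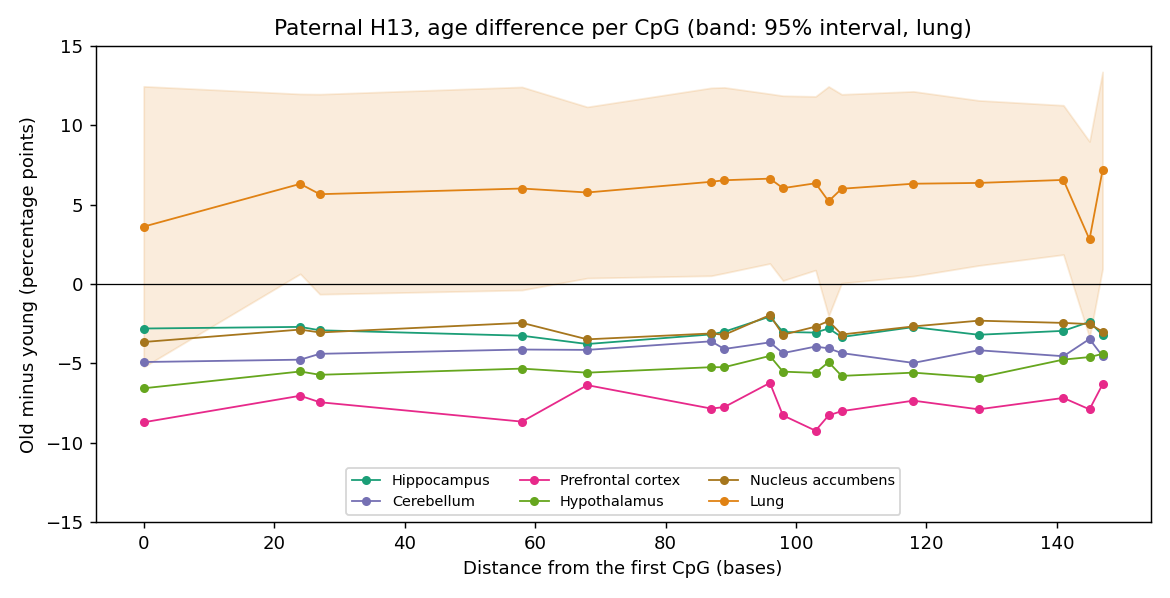
Old minus young difference on the paternal allele (percentage points) against distance from the first CpG (bases), 1 line per tissue, with the 95% interval of lung shaded. The lung line runs from 2.81 to 7.17 points and the lines of the 5 brain areas lie below 0 at each CpG. No single CpG was past the adjusted threshold.

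The difference between the age effects of a brain area and of lung was tested within mice. It compares the same lung libraries with each area, so the 5 tests share them. For paternal H13 the nucleus accumbens age difference less the lung one came to -8.70 points (95% interval -10.9 to -6.52, limma adjusted p = 0.000707). It was -8.78 points in hippocampus (-12.5 to -5.07, adjusted p = 0.0116), and -11.2 points in hypothalamus (-16.8 to -5.64, adjusted p = 0.0370). In these 3 areas 6.25% of region-alleles were called, which was H13 alone. In cerebellum it was -10.1 points (limma adjusted p = 0.0563, called without mouse 7 or 8), and in prefrontal cortex -13.5 points (adjusted p = 0.499). In nucleus accumbens paternal H13 was 13.1 points lower than lung in old mice and 4.38 points lower in young mice. The exact permutation p was 0.0286 in hippocampus, cerebellum, hypothalamus and nucleus accumbens, the smallest possible, so every old mouse with values lay below every young one in this difference. These differences of age effects were not run with the calls as covariate. Mean calls differed with age in opposite directions in brain and lung. The call in nucleus accumbens held with any 1 mouse left out. That in hippocampus was lost without mouse 2 or 5, and that in hypothalamus without mouse 1, 2, 3, 4, 7 or 8.

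Of the 17 paternal CpGs 14 were called in hippocampus, 15 in hypothalamus and 16 in nucleus accumbens, and 0 in cerebellum and prefrontal cortex. Of all CpG-alleles 6.83, 7.8 and 8.5% were called in the first 3 areas and 0% in the others. CpG 16 was called in none. The counts were 0 in hippocampus without mouse 2, 5, 7 or 8 and 9 without mouse 1, and 0 in hypothalamus without any 1 mouse but mouse 6. In cerebellum 14 were called without mouse 8, and the share of all CpG-alleles called in that fit is not given. On the maternal allele 0 were called in any area.

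The mean of both alleles, a measure chosen after the data were seen, was not called changed with age. In lung the mean of both alleles was 50.99, 55.9, 50.8 and 53.5% in old mice 1 to 4, and 50.2, 48.04, 47.04 and 44.9% in young mice 5 to 8. All old values lay above all young ones. Old mice were 5.27 points higher (95% interval 1.60 to 8.93, adjusted p = 0.0936 by limma; exact permutation p = 0.0286, the smallest possible), and it passed without mouse 3, at 6.26 points. Here 0% of regions were called. Against lung (50.2% ± 3.54) the mean was lower by limma in hypothalamus (-3.75 points, adjusted p = 0.00600), nucleus accumbens (-4.64 points, adjusted p = 0.0131) and prefrontal cortex (-4.06 points, adjusted p = 0.0442). The shares of regions called were 33.3, 44.4 and 33.3%. With the mouse as a block the call in prefrontal cortex was lost (-4.06 points, limma adjusted p = 0.0952), as it was without mouse 1, 2, 3, 4, 5 or 7. In hippocampus and cerebellum it differed by -2.43 and -2.75 points (adjusted p of 0.121 and 0.0909; 12.5 and 11.1% of regions called), and passed without mouse 8 and mouse 6, respectively.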

How the data were processed

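The deposited table gives, per CpG and genome, methylation as a percent computed by the authors (methylated calls over all calls) and, in a second block, the deposited count of calls. Percent times count came to whole calls within 0.000266. The build was GRCm38 and the tools Bismark 0.14.4, Trim Galore 0.6.6 and bcl2fastq 2.20, per the submitters' processing notes. Not given in the sources used here are the splitting tool, read filters and any removal of PCR copies, so binomial intervals cover counting error only. The limma intervals cover the spread between mice. In the unpaired fits of a brain area against lung they cover the spread between libraries, with those of 1 mouse taken as independent. The labels list 72 samples; the 48 of lane 7651 have columns, and the 24 of lane 7950 were not used here. Libraries held 376 to 461238 calls (median 62773). BL6 was assumed to be genome 1, since no label says so; with this choice the more methylated H13 allele was the maternal one in both crosses, and the other choice would exchange the parental labels. Ages are those of the sample labels; the protocol text differs slightly for the old mice.

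CpGs with at least 50 calls entered. Levels are means over the 17 CpGs other than the end CpG and the last. limma 3.58.1 (R 4.3.3) was fitted on percent over all region-alleles or CpG-alleles of the table, two-sided, with Benjamini-Hochberg adjustment per tissue or pair of tissues and a threshold of 0.05. Covariates were the cross (age), age and cross (tissue), or the cross (within-mouse differences). Old and young were also compared by exact permutation (70 assignments for 4 against 4), and edgeR 4.0.16 was run on calls. The strain and parental contrasts were fitted on the genome difference per mouse. limma was tested on simulated data. Mouse numbers mark the same animal in each tissue, so they pair tissues. The main fits of a brain area against lung left this pairing out, and the mouse block was an alternative. Deviations of the same mouse correlated at -0.329 to 0.773 over 15 tissue pairs (median 0.201). The promoter sequence came from RefSeq. Named singly are the end CpG, the highest and lowest CpG per allele, and at most 5 called CpG-alleles per comparison; CpGs 13, 16 and 17 were named after their values or position were seen. The members, lists and comparisons were chosen with earlier results of these data known. Alternatives were other minimums, summed calls, the end CpG included, the logit scale, edgeR, the mouse block, no cross covariate, the calls as covariate and leaving out each mouse. Not each alternative was run for each result. The edgeR fit and the fit without the cross covariate covered the old minus young levels only. The calls as covariate covered those levels and the differences of single alleles from lung. Mice are 1 per replicate, and libraries of 1 mouse are not independent.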

Additional observations from a re-analysis of the deposited data

Results flagged for a closer look

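In 4 of 22 groups of 4 mice (tissue, age and allele) 1 library stood far from the other 3; the criterion is set so that chance gives such a library in about 5% of groups. The 4 are not independent, since they come from 1 library of mouse 5 and 2 libraries of mouse 8. On the paternal allele these were hippocampus of young mouse 8 (13.8%), prefrontal cortex of young mouse 5 (29.4%) and lung of young mouse 8 (22.3%). On the maternal allele it was prefrontal cortex of young mouse 5 (46.1%). In that library of mouse 5 Gnas also had no excess on the maternal allele (2.65% against 9.13%) and paternal Plagl1 had 62.8%, while Impact had 90.2% and 0.531%.

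Against lung, the paternal age difference was called in hippocampus (-8.78 points), hypothalamus (-11.2 points) and nucleus accumbens (-8.70 points), by the limma test of the within-mouse difference. Cerebellum (-10.1 points) and prefrontal cortex (-13.5 points) had the same direction and were not called. The calls in hippocampus and hypothalamus were each lost with some single mice left out. All areas were compared with the same lung libraries.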

How the results depend on the processing

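The allele difference of H13 kept its direction and its call under each alternative run for it, and the strain difference was called under none. Including the end CpG and summing calls changed no call and turned no sign. Leaving out the cross covariate and edgeR on calls were run only for the 12 old minus young values, none of which was called in the main fit. They called none of these and turned no sign, and the called results were not run with them. A minimum of 100 calls leaves out values of the prefrontal cortex library of mouse 5 and the lung library of mouse 8. The cause of each change below was not tested. The CpG counts below stand without the share of all CpG-alleles called, which is given for the main fits only.

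With the calls as covariate the age difference in prefrontal cortex was -17.7 points on the maternal and 11.2 points on the paternal allele, and in nucleus accumbens -2.11 and 1.24 points, each against the sign without it and none called. Against lung, the uncalled maternal differences changed sign in hypothalamus (-1.05 points) and nucleus accumbens (1.64 points) with that covariate, on the logit scale in prefrontal cortex (0.0268) and nucleus accumbens (0.00739), and at a minimum of 100 calls in prefrontal cortex (1.90 points) and hypothalamus (-1.21 points).

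At a minimum of 100 calls, which drops the lung of mouse 8, paternal H13 in lung was 8.46 points higher in old mice and called (limma adjusted p = 0.00620), with 17 CpGs. The age difference in cerebellum less that in lung was then -11.7 points and called, with 15 CpGs, and prefrontal cortex less lung -8.995 points and called, with 16 CpGs. At the same minimum hypothalamus less lung was -7.36 points and not called, with 1 CpG, and the age difference in hypothalamus less that in lung -11.3 points and not called. At a minimum of 20 calls that value was -11.2 points and not called (limma adjusted p = 0.0540). The CpG counts were 0 at both minimums for the age difference in hippocampus and in hypothalamus less that in lung, and 0 at 20 calls for hypothalamus less lung. The mean of both alleles at 100 calls was called against lung in hippocampus (-3.04 points) and cerebellum (-3.23 points).

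With the mouse as a replicate block 7 maternal CpGs were called in hippocampus against lung, and the mean of both alleles in prefrontal cortex against lung (-4.06 points) was no longer called. The block changed no other call.

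With 1 mouse left out in turn, these values turned sign, gained or lost a call. On the maternal allele the age difference less that in lung ran from -4.11 to 0.319 points in hippocampus, -2.06 to 5.92 in cerebellum, -1.93 to 17.7 in prefrontal cortex and -1.61 to 5.91 in hypothalamus. The maternal difference from lung ran from -3.99 to 4.65 points in prefrontal cortex, -0.423 to 2.66 in hypothalamus and -1.85 to 0.959 in nucleus accumbens, with 0 to 1 CpGs called in hippocampus. By cross it ran from -6.53 to 10.5 points in prefrontal cortex and -11.0 to 1.49 in nucleus accumbens.

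Paternal age differences ran from -5.66 to 0.0885 points in hippocampus, -4.87 to 0.00326 in nucleus accumbens and 3.65 to 8.46 in lung (0 to 17 CpGs). Less that in lung, they ran from -10.6 to -7.68 points in hippocampus (0 to 14 CpGs), -11.7 to -8.00 in cerebellum (0 to 14 CpGs) and -13.5 to -9.25 in hypothalamus (0 to 17 CpGs). Against lung, paternal levels ran from -10.4 to -5.13 points in prefrontal cortex (0 to 17 CpGs) and -9.97 to -6.82 in hypothalamus (0 to 16 CpGs), and the counts were 0 to 17 CpGs in hippocampus and in nucleus accumbens. By cross, paternal levels ran from -0.702 to 5.05 points in hippocampus, -5.33 to 3.72 in prefrontal cortex, -0.534 to 3.73 in hypothalamus and -0.571 to 4.30 in nucleus accumbens. For the mean of both alleles the age difference in lung ran from 3.83 to 6.26 points. Its difference from lung ran from -2.92 to -1.67 points in hippocampus, -3.35 to -1.78 in cerebellum and -4.65 to -2.86 in prefrontal cortex.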
